A study of Mus musculus with 12 samples.

Results

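Right ventricles of adult mouse hearts with Wnt loss of function (Wnt LOF) were compared with right ventricles (RV) of control hearts, gene by gene. The comparison rests on 6 of the 12 RNA-seq libraries of the series: the 3 libraries labelled WntLOF RV and the 3 labelled control RV. The other 6 libraries are the left ventricles (LV) of the same 2 genotypes, again 3 a group. All 4 groups share the tissue (heart ventricle), the age (adult), the extraction of RNA with Trizol and Illumina library preparation. The genotype is given as control or Wnt LOF, with no agent, time point or strain. The gene that was inactivated, and any promoter or cell type that drives a transgene or Cre, are not stated in the labels. Nothing in the labels ties the 3 libraries of a group to different animals. The p-values here measure only the spread between libraries, part of which may be technical.

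Wnt proteins are secreted ligands that bind Frizzled receptors together with LRP5 or LRP6. In the canonical branch this stops a destruction complex of Axin, APC and GSK3 kinases from marking beta-catenin for degradation, and beta-catenin then acts with TCF/LEF factors on target genes such as Axin2. In the adult heart the pathway is known for effects on conduction, ion channel genes and repair, and the ventricles differ in their developmental origin. The series title places the study in ventricle-specific Wnt programmes and arrhythmia.

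The RV libraries held 15025051 to 17870968 counted reads, so that 1 CPM (reads of a gene as a part of the library's TMM-scaled total) stood for 15.1 to 18.0 reads. Of 40594 genes, 15494 had enough reads to test. The libraries carried heart muscle as labelled: a list of 30 sarcomere and Z-disc genes summed to 189163 to 202491 CPM in each. Mitochondrially encoded genes took 5.22% to 6.27% of the reads of control RV libraries. They took 4.98%, 8.29% and 7.05% in the libraries labelled WntLOF RV 1, 2 and 3. Of 15 listed mitochondrially encoded genes, 6 had no read in any RV library, mt-Co2, mt-Co3 and mt-Atp6 among them. These shares are thus partial and are not the whole mitochondrial share of the RNA. In each group the library numbered 3 was the one with Y-linked reads, 278 CPM in control and 254 CPM in Wnt LOF for a list of 4 genes, against at most 1.29 CPM in the other RV libraries. Xist, the X-inactivation RNA, was 7.05 CPM in control RV 3 and 25.1 CPM in WntLOF RV 3, against 515 to 580 CPM in the other RV libraries. The libraries numbered 3 are thus not technical repeats of the others in their group.

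Wnt LOF libraries 1 and 3 stood apart from their labels in different ways. Wif1, a secreted Wnt inhibitor that is much higher in the RV than in the LV of control hearts, was 2.56 CPM in the library labelled WntLOF RV 1, against 11.99, 12.25 and 18.4 CPM in control RV and 2.62 to 3.18 CPM in control LV. Over 21 genes listed as ventricle genes with earlier results of these data known, each library was placed on a scale that runs from -1 (mean of control LV) to 1 (mean of control RV). The library labelled WntLOF RV 1 had a median position of -0.805, with 19 of the 21 genes nearer to the LV mean. Its counterpart labelled WntLOF LV 1 lay at 0.960, on the RV side. Control RV libraries lay at 1.22, 1.10 and 0.763, and the library labelled WntLOF RV 2 at 1.31. The control libraries set this scale, so their own places near its ends were fixed in advance and are no test. The library labelled WntLOF RV 3 lay between the ventricles at 0.209. Of the 21 genes, which were listed with these data known, 20 had control RV and control LV values that did not overlap. The exception, Ano4, is described further on as a leading gene, and without it the libraries labelled WntLOF RV 1 and 3 lay at -0.771 and 0.234. The library labelled WntLOF RV 3 also held transcripts of some atrial muscle genes. Myl7, the atrial myosin light chain, was 10.2 CPM there and 0.0555 to 1.26 CPM in the other 5 RV libraries. Myl4, another atrial light chain, was 10.7 CPM against 1.5015 to 2.59 CPM. Sln, an atrial regulator of the calcium pump, was 1.85 CPM (29 reads) against 0 to 0.167 CPM. The atrial list as a whole was not raised in that library. Its 17 genes summed to 273 to 394 CPM in control. In Wnt LOF libraries 1 to 3 they summed to 348, 397 and 301 CPM. Of the 17 genes, 14 could be tested. Their median deviation from the mean of the RV libraries was -0.26 on the log2 scale in the library labelled WntLOF RV 3. For many genes and lists, values are therefore also given without the library labelled WntLOF RV 1 or without the library labelled WntLOF RV 3. Some are given without both, which leaves a single Wnt LOF library (WntLOF RV 2) that is assumed to vary like the other groups. Genes given with all libraries only may move as well.

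**Figure D1:**
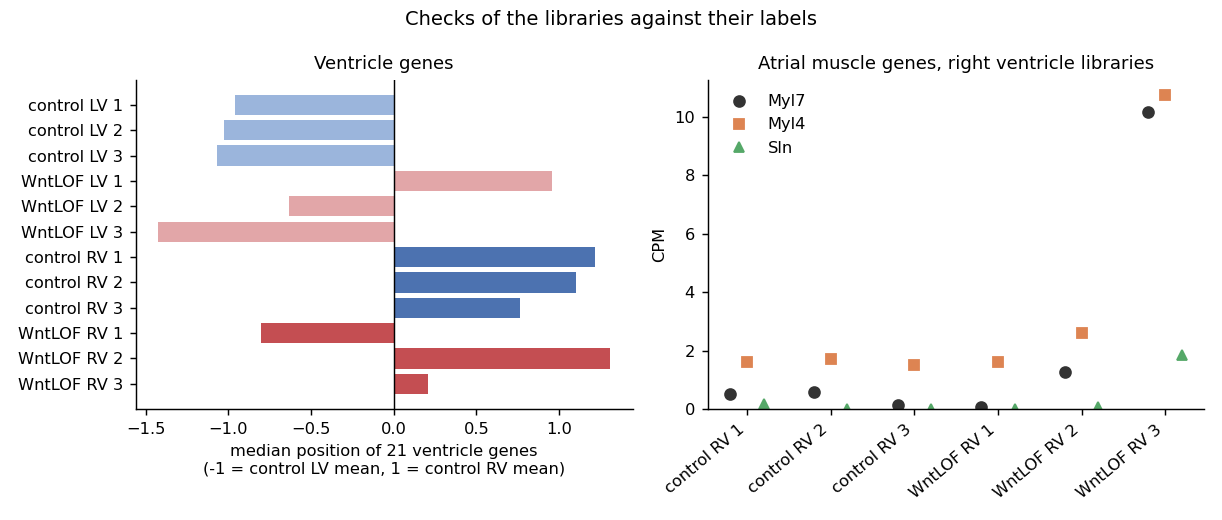
Left, median position of 21 ventricle genes in each library on a scale from -1 (mean of control LV) to 1 (mean of control RV). Right, level in CPM of 3 atrial muscle genes in each RV library. The library labelled WntLOF RV 1 lies at -0.805, and the library labelled WntLOF RV 3 has 10.2 CPM of Myl7 and 10.7 CPM of Myl4.

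No gene passed an adjusted p of 0.05 by edgeR's quasi-likelihood test over the 15494 genes (0 called, 0% of those tested, smallest adjusted p 0.99998). Every gene value below is thus a difference in level that did not reach the threshold. Without adjustment, 418 genes had a p under 0.05 (2.70% of those tested), 238 higher in Wnt LOF (1.54%) and 180 lower (1.16%). The 3 Wnt LOF values lay wholly outside the 3 control values for 1171 genes (7.56%), above them for 560 (3.61%) and below them for 611 (3.94%). Fold changes were centred on 0: the median log2 fold change was 0.00, 50.3% of genes lay above 0 and 49.7% below, and 5% of genes lay under -0.33 and 5% over 0.42. Without the library labelled WntLOF RV 1 the count at an unadjusted p under 0.05 was 709 (4.58%), still with 0 genes called. Without the library labelled WntLOF RV 3 it was 351 (2.27%), again with 0 called. Without both it was 818 (5.28%), and 1 gene, Ankrd55, an ankyrin repeat protein, was called (log2 fold change 4.20, adjusted p 0.000317). That call rests on the library labelled WntLOF RV 2, where Ankrd55 was 22.2 CPM, against 0.889 to 1.46 CPM in the other 5 RV libraries, and without that library its log2 fold change was -0.25.

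Among the Wnt genes themselves, Ctnnb1 (ENSMUSG00000006932), which encodes beta-catenin, lay lower in all Wnt LOF libraries. It was 559.9, 523 and 511 CPM in control libraries 1 to 3 and 425, 454 and 352 CPM in Wnt LOF libraries 1 to 3. The groups did not overlap, and the means were 531 ± 25.7 and 410.1 ± 52.4 CPM (SD, n = 3). The log2 fold change was -0.37 (SE 0.14, unadjusted p 0.0203 by edgeR), -0.40 without the library labelled WntLOF RV 1 and -0.27 without the library labelled WntLOF RV 3. The Wnt LOF mean was 0.772 times the control mean in whole-tissue RNA. In such RNA, fewer cells of a type and less RNA per cell cannot be told apart. The annotation has exons of Ulk4 on the opposite strand of Ctnnb1, and the strand setting of the counting is not stated.

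The ligands and their receptors lay near their control levels. Of 10 tested Wnt and R-spondin genes, 3 lay above 0 and 7 below, with a median log2 fold change of -0.09, and 0 had an unadjusted p under 0.05. Wnt9a, a canonical ligand, averaged 9.74 ± 0.358 CPM in control and 8.45 ± 0.844 CPM in Wnt LOF (SD, n = 3), without overlap, and was the single ligand of the 10 whose groups were apart (beside 7.56% of all genes). The ligand median was -0.04 without the library labelled WntLOF RV 1, 0.02 without the library labelled WntLOF RV 3 and 0.22 without both. Of 16 tested receptors, 8 lay above and 8 below 0 (median 0.01). The receptor with the smallest p was Lgr6 (ENSMUSG00000042793), which binds R-spondins and so raises the Wnt response of a cell. It was 43.1, 37.9 and 46.3 CPM in control and 51.4, 96.5 and 57.3 CPM in Wnt LOF. All Wnt LOF values lay above the control values, with the library labelled WntLOF RV 2 the highest (log2 fold change 0.69, SE 0.26, unadjusted p 0.0237 by edgeR). Lgr6 had 0.86 without the library labelled WntLOF RV 1 and 0.80 without the library labelled WntLOF RV 3. Ror1, a receptor for non-canonical ligands, had 0.36 (SE 0.19), with overlapping groups.

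Inside the cell, 29 genes for beta-catenin itself, its destruction complex and TCF partners were tested, of which 9 lay above and 20 below 0 (median -0.04). Ctnnb1 was the only one of them with an unadjusted p under 0.05. Tle3, a corepressor that binds TCF factors, was 20.9, 19.5 and 17.3 CPM in control and 24.2, 23.4 and 21.2 CPM in Wnt LOF. These groups did not overlap either (log2 fold change 0.25, SE 0.12). Among 10 secreted or membrane antagonists, 5 lay above and 5 below 0. The ventricle marker Wif1 had -0.51 (SE 0.80) with all libraries and -0.05 without the library labelled WntLOF RV 1. Znrf3, a ubiquitin ligase that removes Frizzled receptors, had 0.16 (SE 0.12), and Notum, which strips a lipid from Wnt proteins, had -0.66 (SE 0.36) at 0.511 to 2.05 CPM.

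Target genes of the pathway were spread evenly about 0. Of 18 tested members of the target and feedback list, 9 lay above and 9 below 0, the median was -0.01, and none had an unadjusted p under 0.05 or groups that did not overlap. The median was -0.01 without the library labelled WntLOF RV 1 and 0.02 without the library labelled WntLOF RV 3. Axin2, the feedback gene used most often as a readout of the canonical branch, was 7.59, 8.15 and 4.57 CPM in control and 5.61, 7.28 and 4.47 CPM in Wnt LOF. Its groups overlapped through control library 3, and its log2 fold change was -0.23 (SE 0.31). Lef1, a TCF/LEF factor and itself a target, was too low to test, with 4 to 13 reads in control and 3 to 9 reads in Wnt LOF.

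The gene with the lowest fold change among those leading the comparison was Pdk4 (ENSMUSG00000019577), the kinase that shuts pyruvate dehydrogenase and so favours fatty acids as fuel. It was 1299, 894 and 917 CPM in control libraries and 376, 478 and 477 CPM in Wnt LOF libraries. The groups were far apart, with means of 1036 ± 227 and 444 ± 58.5 CPM (SD, n = 3), a ratio of 0.428. The log2 fold change was -1.22 (SE 0.32, unadjusted p 0.00351 by edgeR), -1.12 without the library labelled WntLOF RV 1 and -1.28 without the library labelled WntLOF RV 3. Control LV libraries held 541 to 619 CPM and Wnt LOF LV libraries 297 to 763 CPM, all below the lowest control RV library.

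Other genes of fat handling lay on the same side. Plin2 (ENSMUSG00000028494), which coats lipid droplets, was 93.9, 82.6 and 81.7 CPM in control and 65.4, 66.9 and 63.5 CPM in Wnt LOF. The Wnt LOF libraries differed among themselves by little, and all lay below every control (log2 fold change -0.40, SE 0.10, unadjusted p 0.00107). Cpt1b, which brings fatty acids into mitochondria, was 40.4, 40.2 and 40.5 CPM against 37.1, 31.4 and 32.1 CPM (-0.27, SE 0.09). Fabp5, a fatty acid carrier of endothelium and macrophages, was 13.3, 12.6 and 14.8 CPM against 9.11, 6.62 and 10.2 CPM (-0.65, SE 0.20). Slc16a1, the transporter of lactate and ketone bodies, was 497, 493 and 484 CPM against 412, 426 and 399 CPM (-0.25, SE 0.08). In all 4 the groups were apart. Without the library labelled WntLOF RV 1 these 4 had -0.40, -0.34, -0.69 and -0.25 in the same order, and without the library labelled WntLOF RV 3 they had -0.38, -0.24, -0.78 and -0.23.

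Most genes of the fat-burning lists lay below 0. Of 31 tested genes of fatty acid uptake and oxidation, 25 lay below 0 and 6 above, with a median log2 fold change of -0.12, beside 0.00 over all genes. In 7 of the 31 (22.6%) the groups did not overlap, beside 7.56% of all genes in either direction. All 7 had Wnt LOF below, as did 3.94% of all genes. Beyond Cpt1b these include 3 enzymes of the beta-oxidation cycle at high level: Hadhb averaged 210.1 and 184 CPM, Acaa2 averaged 967 and 827 CPM, and Acadvl averaged 558 and 489 CPM in control and Wnt LOF. A single member, Cpt1b, had an unadjusted p under 0.05. Genes that respond to PPAR receptors, the fatty acid sensors of the nucleus, gave 23 of 29 below 0, with the same median of -0.12. In 6 of them (20.7%) the groups were apart, beside 7.56% of all genes in either direction. All 6 had Wnt LOF below, as did 3.94% of all genes. Cpt1b, Acaa2, Cd36, Fabp3 and other genes are in both lists, so these results are not separate from each other. Ucp3, a mitochondrial carrier induced by fatty acids, was 90.1, 91.9 and 74.1 CPM in control and 55.5, 52.1 and 70.5 CPM in Wnt LOF (-0.52, SE 0.26). Ppara, the receptor itself, had -0.24 (SE 0.12) and Angptl4, a secreted lipase inhibitor, -0.80 (SE 0.49), both with overlapping groups. The fatty acid median was -0.08 without the library labelled WntLOF RV 1 and -0.17 without the library labelled WntLOF RV 3, and the PPAR median was -0.09 and -0.17. Summed levels of the fatty acid list overlapped, at 17859.6 to 19349 CPM in control and 16601 to 18849.9 CPM in Wnt LOF.

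Of 22 genes of ketone body and branched-chain amino acid use, 17 lay below 0 (median -0.09). In 2 of them the groups were apart (9.09%, beside 7.56% of all genes). Their median was -0.05 without the library labelled WntLOF RV 1, -0.11 without the library labelled WntLOF RV 3 and -0.14 without both, where the fatty acid median was -0.11. Bdh1, which oxidizes ketone bodies, went the other way in some libraries, with 60.4, 46.2 and 59.7 CPM in control and 174, 37.4 and 155 CPM in Wnt LOF. Bdh1 is also 1 of the ventricle genes, higher in control LV (119.7 to 165 CPM), and its log2 fold change of 1.14 (SE 0.58) was -0.57 without both the libraries labelled WntLOF RV 1 and 3. The 33 genes of glycolysis, glycogen and pyruvate use were split 15 above and 18 below 0, with a median of -0.01.

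**Figure D2:**
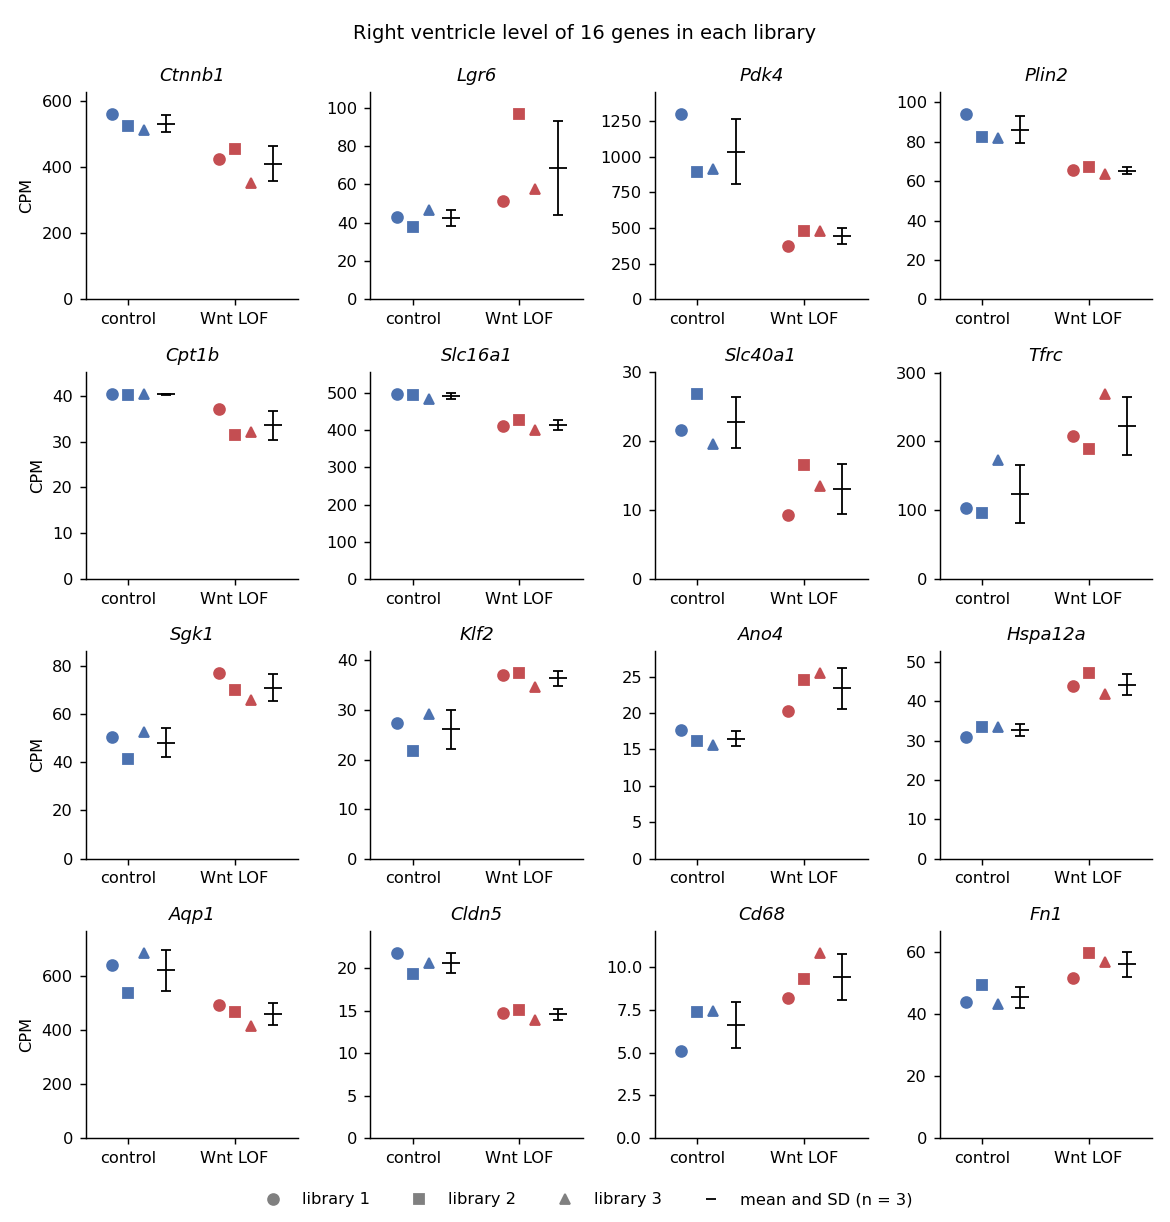
CPM of 16 genes in each RV library (points, library number by shape), with the mean and SD of each group (n = 3), every axis starting at 0. All 16 have groups that do not overlap, and Pdk4 is 894 CPM or more in control and 478 CPM or less in Wnt LOF.

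Genes of iron traffic gave a pair on opposite sides. Slc40a1 (ENSMUSG00000025993), which encodes ferroportin, the exporter of iron from cells, was 21.7, 26.9 and 19.6 CPM in control and 9.28, 16.5 and 13.6 CPM in Wnt LOF. Tfrc (ENSMUSG00000022797), the transferrin receptor that brings iron in, was 104, 95.8 and 173 CPM in control and 209, 189 and 269 CPM in Wnt LOF. Neither gene had overlapping groups. In both genotypes library 3, the one with Y-linked reads, had the highest Tfrc. Slc40a1 had a log2 fold change of -0.80 (SE 0.20, unadjusted p 0.00147 by edgeR), -0.60 without the library labelled WntLOF RV 1 and -0.82 without the library labelled WntLOF RV 3. Tfrc had 0.84 (SE 0.30, unadjusted p 0.0175), 0.89 and 0.68 in the same order. Tfrc and Slc40a1 are also active in red cell precursors and macrophages. The erythroid list, which holds Tfrc, had 3 of 10 members above 0 and 7 below, with a median of -0.19 that moved to 0.09 without the library labelled WntLOF RV 1 and to -0.52 without the library labelled WntLOF RV 3. Its summed level was 318 to 393 CPM in control and 342, 377 and 637 CPM in Wnt LOF libraries 1 to 3, and the part of blood in these values was not tested.

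A kinase among the leading genes and a transcription factor of the immediate early list lay on the higher side. Sgk1 (ENSMUSG00000019970), a kinase induced by steroids and insulin that acts on ion channels, was 50.2, 41.3 and 52.6 CPM in control and 76.8, 69.8 and 65.8 CPM in Wnt LOF. All Wnt LOF libraries lay above all controls, by 1.47 times in the means (log2 fold change 0.56, SE 0.14, unadjusted p 0.00132 by edgeR). Klf2 (ENSMUSG00000055148), a transcription factor that endothelial cells make under flow, was 27.4, 21.7 and 29.2 CPM against 37.0, 37.4 and 34.6 CPM, also without overlap (0.48, SE 0.14). Without the library labelled WntLOF RV 1 these were 0.50 and 0.46, and without the library labelled WntLOF RV 3 they were 0.61 and 0.51. Their lists did not follow as wholes. Of 23 genes that respond to glucocorticoids, Sgk1 lay higher and Pdk4 lower, and the list median was 0.07 with 15 above and 8 below 0. Of 24 immediate early genes, 17 lay above 0 with a median of 0.09. Klf2 was the single member with groups apart (4.17%, beside 7.56% of all genes). The immediate early median was 0.08 without the library labelled WntLOF RV 1, 0.09 without the library labelled WntLOF RV 3 and -0.02 without both. Without both, 12 lay above 0 and 12 below.

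The smallest unadjusted p among genes higher in Wnt LOF belonged to Ano4 (ENSMUSG00000035189), a membrane protein of the anoctamin family of calcium-activated channels and scramblases. It was 17.6, 16.2 and 15.7 CPM in control and 20.2, 24.5 and 25.4 CPM in Wnt LOF, so that the lowest Wnt LOF library, WntLOF RV 1, still lay above the highest control. The log2 fold change was 0.50 (SE 0.12, unadjusted p 0.000963 by edgeR). Hspa12a (ENSMUSG00000025092), a distant member of the HSP70 chaperone family, was 30.9, 33.4 and 33.6 CPM against 43.8, 47.1 and 41.7 CPM (0.44, SE 0.12). Its spread within each group was small beside the distance between them. Exons of Eno4 lie on the strand opposite to Hspa12a, and reads of the pair cannot be told apart without strand.

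The other genes that led on that side had lower levels. Glrx, a thiol repair enzyme, was 10.3, 11.99 and 14.8 CPM in control and 14.8, 21.003 and 20.5 CPM in Wnt LOF, where the lowest Wnt LOF library nearly touched the highest control (0.60, SE 0.18). Sec14l2, a lipid transfer protein, was 6.58, 7.09 and 8.36 CPM against 9.78, 12.9 and 13.3 CPM (0.71, SE 0.17). Hpgds, the prostaglandin D synthase of mast cells and macrophages, was 2.40, 2.45 and 2.68 CPM against 4.55, 3.73 and 4.73 CPM (0.79, SE 0.19). The Wnt LOF mean of Hpgds was 1.73 times the control mean, from 37 to 82 reads a library. Hmga1, a chromatin protein of proliferating cells, had 0.64 (SE 0.19), and Parp16, an ADP-ribosyl transferase of the endoplasmic reticulum, had 0.58 (SE 0.17). A4gnt, a glycosyltransferase, had 0.70 (SE 0.21), Fam83h, a scaffold for casein kinase, 0.78 (SE 0.24) and the non-coding RNA AU020206 0.59 (SE 0.15). The annotation has exons of AI413582 on the strand opposite to Hmga1.

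Among genes that led on the lower side without a place in a pathway list, Hjurp, a chaperone of centromeric histone, was 85.5, 61.1 and 69.7 CPM in control and 40.8, 49.1 and 36.5 CPM in Wnt LOF (-0.77, SE 0.23). Olfml2b, a secreted matrix-binding protein, was 34.2, 31.7 and 26.0 CPM against 23.7, 24.4 and 19.05 CPM (-0.46, SE 0.14). In both genes every Wnt LOF library lay below every control. Heatr5b, which takes part in endosome traffic, had -0.37 (SE 0.12), Ankrd50, which recycles membrane proteins from endosomes, -0.25 (SE 0.08) and Gprasp1, a receptor-sorting protein, -0.29 (SE 0.09). Gprasp1 shares exons with Armcx5 and Bhlhb9. The naming rule took 24 genes from both sides, of which 21 are described. It required groups that do not overlap, so their direction without a library was fixed by that choice. The other 3 carry only predicted or clone-based names and are not described.

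**Figure D3:**
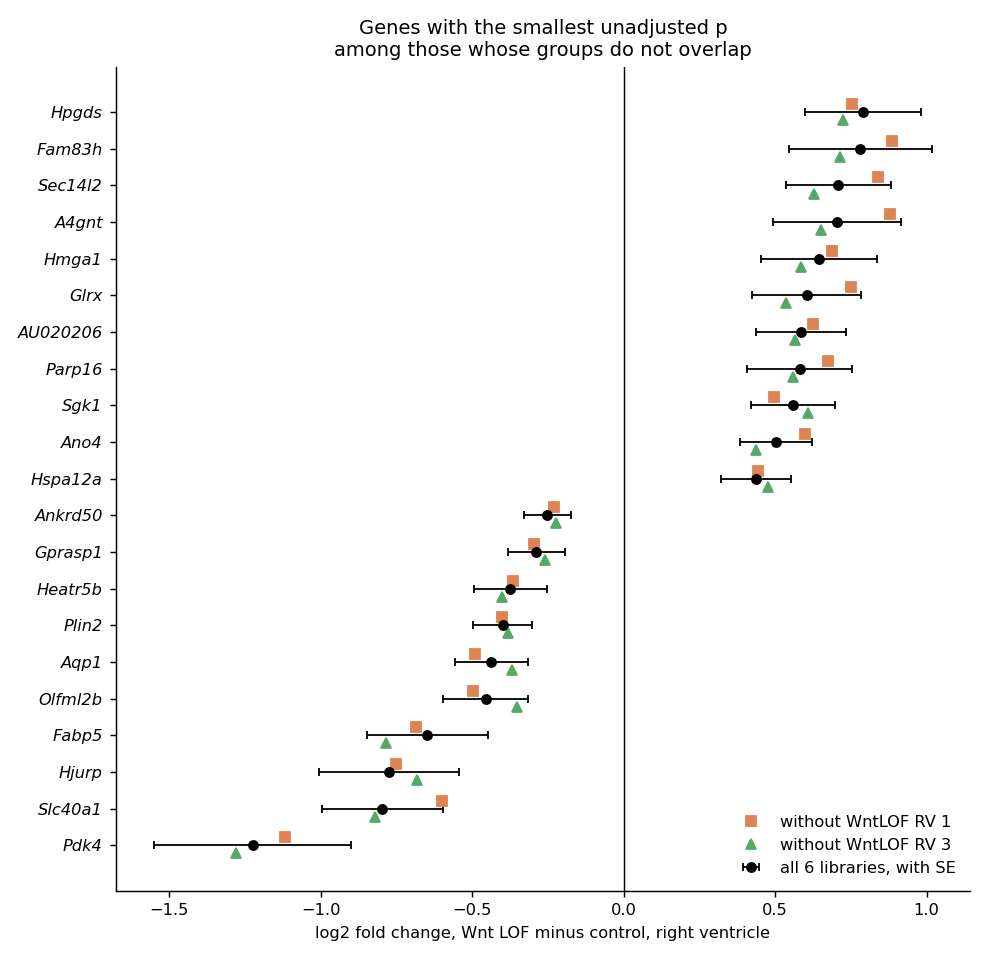
Log2 fold change (Wnt LOF minus control, RV) of the 21 leading genes with all libraries (circles, bars show the SE), without the library labelled WntLOF RV 1 (squares) and without the library labelled WntLOF RV 3 (triangles). Pdk4 had -1.22, -1.12 and -1.28. All were chosen for groups that do not overlap, which fixes the side of 0 they lie on.

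Endothelial genes were mixed. Aqp1 (ENSMUSG00000004655), the water channel of capillary endothelium and red cells, was 642, 539 and 686 CPM in control and 495, 469 and 416 CPM in Wnt LOF. Cldn5, a tight junction protein, was 21.8, 19.4 and 20.6 CPM against 14.8, 15.1 and 13.9 CPM. For both, every Wnt LOF library lay below every control. Their log2 fold changes were -0.44 (SE 0.12, unadjusted p 0.00273 by edgeR) and -0.50 (SE 0.17, unadjusted p 0.0103). Aqp1 had -0.49 and Cldn5 -0.51 without the library labelled WntLOF RV 1, and -0.37 and -0.46 without the library labelled WntLOF RV 3. Emcn, a sialomucin of capillaries and veins, had 0.34 (SE 0.13), with 34.3, 42.7 and 29.7 CPM in control and 41.7, 48.2 and 44.9 CPM in Wnt LOF. The endothelial list of 26 genes had 13 above and 13 below 0 (median -0.01), and its summed level overlapped between the groups, at 3073 to 3525 CPM in control and 2874 to 3198 CPM in Wnt LOF. Smooth muscle, pericyte and endocardial genes lay above 0 in 14 of 19, with a median of 0.07.

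Most macrophage genes lay above 0, by little. Cd68 (ENSMUSG00000018774), a lysosomal protein of macrophages, was 5.08, 7.35 and 7.44 CPM in control and 8.16, 9.27 and 10.8 CPM in Wnt LOF. Mrc1, the mannose receptor of tissue-resident macrophages, was 41.7, 51.7 and 46.7 CPM against 55.1, 57.2 and 58.5 CPM. The groups did not overlap in either, with log2 fold changes of 0.51 (SE 0.18) and 0.29 (SE 0.12). Of 31 tested macrophage and myeloid genes, 25 lay above 0, with a median of 0.10, and Cd68 and Mrc1 were the 2 whose groups did not overlap (6.45%, beside 7.56% of all genes). That median was 0.20 without the library labelled WntLOF RV 1 (28 of 31 above 0) and 0.01 without the library labelled WntLOF RV 3 (17 of 31). Summed levels of the list overlapped, at 490.2 to 607 CPM in control and 532 to 604 CPM in Wnt LOF. Igkc, an antibody light chain made by plasma cells, was 0.781, 1.19 and 0.718 CPM in control and 0.944, 2.35 and 2.17 CPM in Wnt LOF. Of the 26 lymphocyte and neutrophil genes listed, only 10 had enough reads to test, and Ly6g was at 0 in all RV libraries.

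Genes that interferons induce lay above 0 in 35 of 41, with a median log2 fold change of 0.19, beside 50.3% of all genes above 0. Ifit3 (ENSMUSG00000074896), an RNA-binding antiviral protein, was 3.51, 3.38 and 3.85 CPM in control and 4.94, 6.20 and 6.14 CPM in Wnt LOF. Every Wnt LOF library lay above every control (0.68, SE 0.26, unadjusted p 0.0186 by edgeR). Oasl2, an antiviral sensor protein, was 4.07, 4.97 and 3.46 CPM against 8.39, 5.48 and 5.05 CPM, with its highest value in the library labelled WntLOF RV 1. Gbp7, an interferon-induced GTPase, was 30.3, 27.0 and 27.5 CPM against 35.9, 30.2 and 32.5 CPM, with a slight overlap (0.22, SE 0.10). In 3 of 41 members (7.32%) the groups did not overlap, beside 7.56% of all genes. The list median was 0.06 without the library labelled WntLOF RV 1, with 29 of 41 above 0, and 0.18 without the library labelled WntLOF RV 3. Of 15 genes of MHC class I and II, 13 lay above 0 (median 0.20), but the median was -0.00 without the library labelled WntLOF RV 3 and 0.32 without the library labelled WntLOF RV 1. B2m, the light chain of class I, was 153, 148 and 113 CPM in control and 138, 234 and 179 CPM in Wnt LOF. Macrophages express many of these genes, and the part of cell numbers in the result was not tested.

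The promoters of Ifit3 and Gbp7 are shown because their list is joined by a sequence feature that the expression values did not use. Interferon acts on genes through the ISRE (interferon-stimulated response element), searched here on both strands as GAAA, any 2 bases, then GAAA. Capitals mark its matches in the 250 bases before the gene start, 5′ to 3′ on the gene's strand, taken from RefSeq (build GRCm38.p6).
Ifit3, chr19:34583279-34583528, plus strand: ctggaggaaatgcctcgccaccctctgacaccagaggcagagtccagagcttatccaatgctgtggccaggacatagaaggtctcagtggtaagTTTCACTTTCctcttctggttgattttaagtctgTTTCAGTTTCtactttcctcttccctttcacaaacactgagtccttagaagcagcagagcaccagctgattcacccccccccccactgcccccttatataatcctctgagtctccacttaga
Gbp7, chr3:142530086-142530335, plus strand: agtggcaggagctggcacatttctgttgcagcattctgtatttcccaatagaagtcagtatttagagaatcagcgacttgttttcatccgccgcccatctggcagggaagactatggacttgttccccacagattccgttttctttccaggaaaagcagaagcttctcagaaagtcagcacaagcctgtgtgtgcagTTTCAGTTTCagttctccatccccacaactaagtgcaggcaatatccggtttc
Ifit3 has 2 matches, the first of them 156 bases before the start, and Gbp7 has 1, at 53 bases before it. Of the 29 tested interferon genes with a promoter in the RefSeq table, 13 (44.8%) held the motif, beside 2.98% of all 32851 promoters and 3.15% of the tested genes with a promoter. A match is a stretch of letters and shows no binding. None of the 4 promoters printed here holds a match to another of the 3 motifs searched.

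Matrix genes lay mostly above 0 with all libraries. Fn1 (ENSMUSG00000026193), fibronectin, was 43.8, 49.2 and 43.1 CPM in control and 51.7, 59.6 and 56.8 CPM in Wnt LOF, without overlap (0.30, SE 0.11). Of 34 collagen and matrix genes, 26 lay above 0 with a median of 0.08. This median was 0.04 without the library labelled WntLOF RV 1 and 0.13 without the library labelled WntLOF RV 3. Without both it was -0.02, with 16 above 0 and 18 below. Col12a1, a collagen of fibril surfaces, lay on the other side, at 7.92, 4.37 and 4.24 CPM against 2.72, 4.15 and 2.49 CPM (-0.83, SE 0.33). Ctgf, a matricellular protein that also counts as a target of mechanical signalling, was 163, 136 and 60.3 CPM in control and 60.2, 63.8 and 54.0 CPM in Wnt LOF. Control library 3 lay among the Wnt LOF values, and the log2 fold change was -1.01 (SE 0.39). Fibroblast markers had 12 of 20 above 0 (median 0.02), but 7 of 20 without the library labelled WntLOF RV 1 (median -0.04) and 15 of 20 without the library labelled WntLOF RV 3 (median 0.10).

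The ion channels, the group that the study's question on arrhythmia points to, stayed close to control. Of 32 potassium channel genes, 20 lay above and 12 below 0, with a median of 0.04, and none had an unadjusted p under 0.05 or groups apart. Kcnd2 and Kcnip2 encode the pore and a subunit of the transient outward current. Kcnd2 was 94.4, 95.8 and 83.3 CPM in control and 54.2, 109 and 59.5 CPM in Wnt LOF, and control LV libraries held 31.2 to 44.8 CPM. The 2 low values are those of the libraries labelled WntLOF RV 1 and 3, so that its log2 fold change was -0.30 (SE 0.41) with all libraries and 0.25 without both. Kcnip2 was 205, 193 and 207 CPM against 231, 187 and 281 CPM (0.21, SE 0.13), and -0.11 without both. Kcnj2, the inward rectifier, had -0.09 (SE 0.14). Kcna4, a pore of the slower transient outward current, had 0.49 (SE 0.28) with overlapping groups.

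Genes of calcium and sodium entry and of calcium release also had list medians near 0, but some members had groups apart. These were 2 of 16 sodium and calcium channel genes (12.5%), beside 7.56% of all genes. For calcium handling and the sodium pump they were 2 of 26 (7.69%, list median 0.03). In each of these lists 1 gene had an unadjusted p under 0.05 by edgeR. Of 16 sodium and calcium channel genes, 7 lay above and 9 below 0 (median -0.08), and the median was 0.03 without the library labelled WntLOF RV 1 and 0.06 without the library labelled WntLOF RV 3. Cacnb3, a beta subunit of calcium channels, was 4.35, 3.18 and 2.61 CPM in control and 4.499, 4.57 and 4.41 CPM in Wnt LOF. The groups were apart but nearly met (0.40, SE 0.18, unadjusted p 0.0418). Cacna1c, the pore of the L-type channel, had -0.08 (SE 0.12). Ryr2, the calcium release channel, had -0.01 (SE 0.13) at 5433 to 6438 CPM, and Atp2a2, the calcium pump of the sarcoplasmic reticulum, had -0.04 (SE 0.13). Itpr2, the inositol trisphosphate receptor of heart muscle, was 168, 141 and 163 CPM against 114, 139 and 131 CPM, with every Wnt LOF library below every control (-0.30, SE 0.12). Gja1, connexin 43 of the gap junctions, was 334, 357 and 289 CPM against 316, 293 and 321 CPM (-0.07, SE 0.12). In 18 genes of gap junctions, desmosomes and the intercalated disc, 5 lay above and 13 below 0 (median -0.05). This median was -0.02 without the library labelled WntLOF RV 1, with 8 above 0, and without both that and the library labelled WntLOF RV 3 it was 0.05, with 13 above 0.

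Cardiac transcription factors had 17 of 27 above 0 (median 0.04). Myocd, myocardin, a cofactor of serum response factor, was 79.1, 81.8 and 99.7 CPM in control and 105, 108 and 121 CPM in Wnt LOF. Every Wnt LOF library lay above every control (0.35, SE 0.14, unadjusted p 0.0229). Irx5, which patterns channel genes across the ventricle wall, was 9.82, 8.34 and 5.88 CPM against 12.1, 9.87 and 11.1 CPM, also apart though barely (0.46, SE 0.29). Its relative Irx3 had 0.02 (SE 0.19), Tbx5 -0.05 (SE 0.22), the right ventricle regulator Hand2 0.05 (SE 0.21) and the ventricular repressor Hey2 0.02 (SE 0.24). Hand1 had no read in any RV library.

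Several genes of wall stress and contraction had other values without the libraries labelled WntLOF RV 1 and 3. Nppb, a natriuretic peptide, was 13.4, 19.4 and 10.7 CPM in control and 52.1, 7.58 and 33.9 CPM in Wnt LOF, and 33.4 to 105 CPM in control LV. Its log2 fold change was 1.11 (SE 0.82), 0.52 without the library labelled WntLOF RV 1 and -0.93 without both. Nppa, the atrial natriuretic peptide, had 0.50 (SE 0.61) and -0.28 without the library labelled WntLOF RV 1. Myl2, the ventricular myosin light chain, was 5119, 7131 and 4770.5 CPM against 2047, 5700.3 and 3098 CPM (-0.65, SE 0.41), and 0.01 without both. Actc1, Unc45b and Xirp2 had groups apart. Actc1, cardiac actin, was 7290.3, 6411 and 6432 CPM in control and 8403, 7619 and 7747 CPM in Wnt LOF (0.24, SE 0.10, unadjusted p 0.0355). Unc45b, the chaperone that folds myosin, was 244, 239 and 243 CPM against 215, 205 and 199.9 CPM (-0.23, SE 0.08, unadjusted p 0.0102). Xirp2, an actin-binding protein of the intercalated disc, was 1016, 1022 and 1109 CPM against 1558, 1182 and 1124 CPM (0.30, SE 0.13), and 0.14 without the library labelled WntLOF RV 1. The myosin heavy chains Myh6 and Myh7 had -0.06 (SE 0.09) and -0.16 (SE 0.13). Over 30 sarcomere genes, 15 lay above and 15 below 0.

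Of 24 genes of the unfolded protein response of the endoplasmic reticulum, 19 lay below 0, with a median of -0.13. The median was -0.13 without the library labelled WntLOF RV 1 and -0.10 without the library labelled WntLOF RV 3, and 1 of the 24 (4.17%) had groups apart, beside 7.56% of all genes. Hspa5, its main chaperone, was 684, 852 and 574 CPM in control and 630.5, 594 and 611 CPM in Wnt LOF (-0.20, SE 0.13). Heat shock genes and cochaperones of the other compartments were split 15 above and 19 below 0 (median -0.03). That median was -0.13 without the library labelled WntLOF RV 1, like that of the unfolded protein response, and without the library labelled WntLOF RV 3 it was 0.01. Hspa8, the constitutive HSP70, was 102, 92.6 and 85.7 CPM in control and 211, 267 and 72.9 CPM in Wnt LOF. Its 2 high values are not shared by the library labelled WntLOF RV 3, and control LV 2 also held 245 CPM. Hspd1, the mitochondrial chaperonin HSP60, was 161, 158 and 159 CPM against 155, 139.9 and 139 CPM, with groups apart (-0.14, SE 0.07).

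Clock genes and Hspd1 are a second case where list members share promoter letters. Of 20 clock genes, 10 lay above and 10 below 0 (median -0.00). Ciart, a repressor of the clock, was 11.9, 13.8 and 13.1 CPM in control and 14.2, 14.7 and 19.7 CPM in Wnt LOF (0.33, SE 0.14), and 0.16 without the library labelled WntLOF RV 3. Cry2, another repressor, was 52.4, 57.4 and 55.4 CPM against 47.2, 48.7 and 47.4 CPM (-0.20, SE 0.09). The groups did not overlap in either, and the directions were opposite. Npas2, a partner of the clock activator, had 0.78 (SE 0.31) at 1.17 to 4.15 CPM and 0.42 without the library labelled WntLOF RV 3. Capitals below mark the E-box CACGTG, the site of clock activators, in Ciart, and the heat shock element (GAA, any 2 bases, TTC, any 2 bases, then GAA) in Hspd1. Both were searched on both strands.
Ciart, chr3:95882229-95882478, minus strand: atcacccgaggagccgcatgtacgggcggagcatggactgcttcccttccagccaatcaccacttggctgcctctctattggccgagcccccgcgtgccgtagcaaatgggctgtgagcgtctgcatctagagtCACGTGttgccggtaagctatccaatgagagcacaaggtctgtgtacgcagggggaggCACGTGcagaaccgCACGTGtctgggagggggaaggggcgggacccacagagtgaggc
Hspd1, chr1:55087933-55088182, minus strand: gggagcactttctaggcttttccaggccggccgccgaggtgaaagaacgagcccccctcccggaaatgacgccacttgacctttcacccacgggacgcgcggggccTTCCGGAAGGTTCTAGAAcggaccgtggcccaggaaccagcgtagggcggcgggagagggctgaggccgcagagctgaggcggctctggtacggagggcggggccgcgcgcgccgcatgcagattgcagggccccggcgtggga
Ciart has 3 E-boxes, the first of them 116 bases before the start, and 5 of 17 clock genes with a promoter in the table (29.4%) hold 1 or more, beside 9.65% of the tested genes with a promoter and 6.02% of all promoters. Hspd1 has 2 overlapping heat shock elements, and 3 of 27 heat shock genes (11.1%) hold the motif, beside 0.494% of the tested genes with a promoter and 0.466% of all promoters. Exons of Hspe1, which encodes the partner chaperonin, overlap those of Hspd1 on the opposite strand. Hspe1 is another of the 3 genes, and its promoter window overlaps that of Hspd1. Both windows hold the same stretch, read from opposite strands, so 1 stretch counts for 2 of the 3 genes.

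Mitochondrial and ribosomal lists depended on single libraries. Of 15 listed mitochondrially encoded genes, 9 could be tested, with a median of 0.28 and 7 above 0. That median was 0.48 without the library labelled WntLOF RV 1 and 0.24 without the library labelled WntLOF RV 3. mt-Nd1, a complex I subunit, was 4318, 5116 and 7213 CPM in control and 4542, 10066 and 7889 CPM in Wnt LOF (0.43, SE 0.33). mt-Co1, a subunit of complex IV, was at 55269 CPM in the library labelled WntLOF RV 2 and at 29421 to 38859 CPM in the other 5 (0.30, SE 0.21). Nuclear genes of complex I had a median of -0.03 over 37 genes, but 0.12 without the library labelled WntLOF RV 1 (29 above 0) and -0.18 without the library labelled WntLOF RV 3 (4 above 0). The 42 genes of complexes II to V gave -0.03, 0.10 and -0.14 in the same order, and 68 cytosolic ribosomal protein genes -0.06, 0.01 and -0.16. The sign of the median of both respiratory lists thus differed by which library was left out, while the ribosomal list was split 34 and 34 without the library labelled WntLOF RV 1. Epicardial and mesothelial genes, which mark the outer lining of the heart, also differed by library, with a median of 0.17 over 13 genes, 0.62 without the library labelled WntLOF RV 1 and -0.07 without the library labelled WntLOF RV 3. Their summed level was 42.2 to 66.5 CPM in control and 21.3, 88.3 and 71.5 CPM in Wnt LOF libraries 1 to 3, and the part of the covering layer in other results was not tested. Cell cycle genes had 20 of 28 above 0, with a median of 0.14, and 0 of them with an unadjusted p under 0.05 by edgeR. The cell cycle median was 0.06 without the library labelled WntLOF RV 3, with 16 of 28 above 0.

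**Figure D4:**
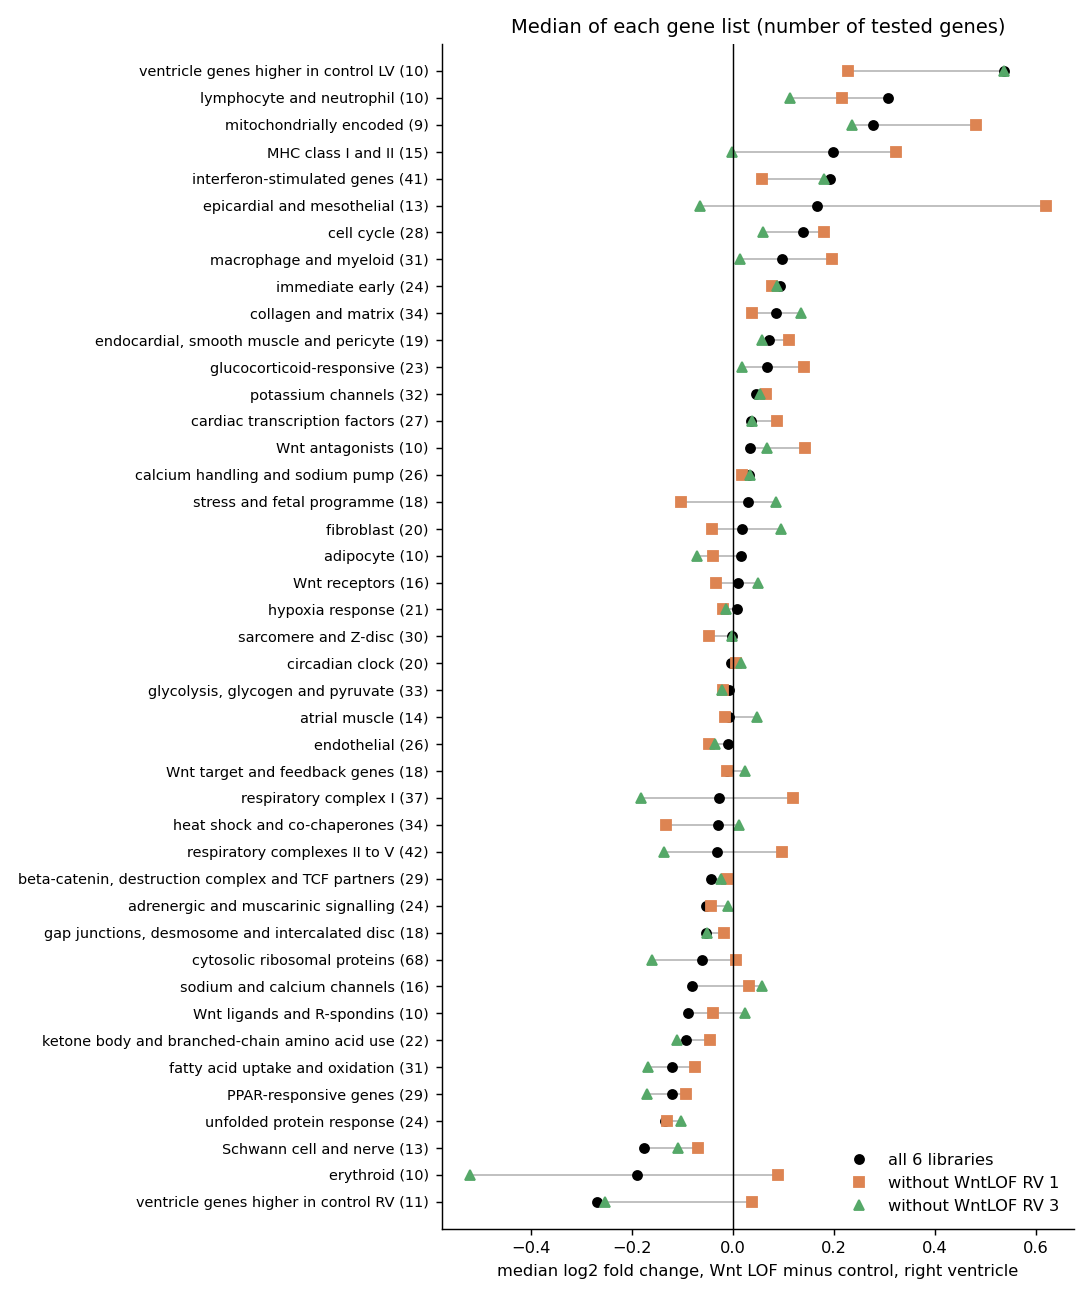
Median log2 fold change (Wnt LOF minus control, RV) of each of 43 gene lists, with the number of tested genes in brackets, using all 6 libraries (circles), without the library labelled WntLOF RV 1 (squares) and without the library labelled WntLOF RV 3 (triangles). Fatty acid uptake and oxidation has -0.12, -0.08 and -0.17, and respiratory complex I has -0.03, 0.12 and -0.18.

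Side by side with the left ventricle, some leading genes had like values in both ventricles and others did not. The 2 comparisons share no library, but they may share hearts. No gene differed between the ventricles in its response at an adjusted p under 0.05 by edgeR (0 called, 0% of those tested), and 312 had an unadjusted p under 0.05 for that difference (2.01%). Ano4 had 0.43 (SE 0.12) in the LV beside 0.50 in the RV, and all 6 Wnt LOF libraries lay above all 6 controls, at 20.2 to 25.4 CPM against 14.6 to 19.3 CPM. Hspa12a gave 0.42 (SE 0.12) beside 0.44, with 41.5 to 48.4 CPM in the 6 Wnt LOF libraries and 28.4 to 39.6 CPM in the 6 controls. The difference between the ventricles was 0.07 (SE 0.17) for Ano4 and 0.02 (SE 0.16) for Hspa12a. Plin2 had -0.31 (SE 0.10) in the LV, Olfml2b -0.48 (SE 0.14), Fabp5 -0.59 (SE 0.20), Aqp1 -0.32 (SE 0.12) and Lgr6 0.54 (SE 0.26), each on the side of its RV value.

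Other genes stood at or across 0 in the LV. Slc40a1 had 0.04 (SE 0.20) there, and its difference between ventricles was -0.84 (SE 0.28, unadjusted p 0.0112). Both LV groups held 10.6 to 15.2 CPM of it, which is the level of the Wnt LOF RV libraries. Sgk1 had 0.07 (SE 0.14) and Klf2 -0.05 (SE 0.14) in the LV, with differences of 0.49 (SE 0.19, unadjusted p 0.0244) and 0.53 (SE 0.20, unadjusted p 0.0220). For Sgk1 the LV libraries of both genotypes held 56.0 to 77.0 CPM, again around the Wnt LOF RV level. Slc16a1 had 0.00 (SE 0.08), Ucp3 0.38 (SE 0.26) and Pdk4 -0.32 (SE 0.32) in the LV. Actc1 had -0.28 (SE 0.10) in the LV and a difference of 0.52 (SE 0.15, unadjusted p 0.00318), with Xirp2 at 0.45 (SE 0.18) and Cacnb3 at 0.73 (SE 0.25). After adjustment all these differences had a p of 0.99961 or more by edgeR. In each ventricle the Wnt LOF library numbered 1 is the one whose ventricle genes went against its label. All the differences between ventricles given here include both of these libraries, and their part in the differences was not tested. Opposite-strand exons also lie at Xirp2, Unc45b, Cry2, Hand2, Irx3 and Myh7 in the annotation.

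**Figure D5:**
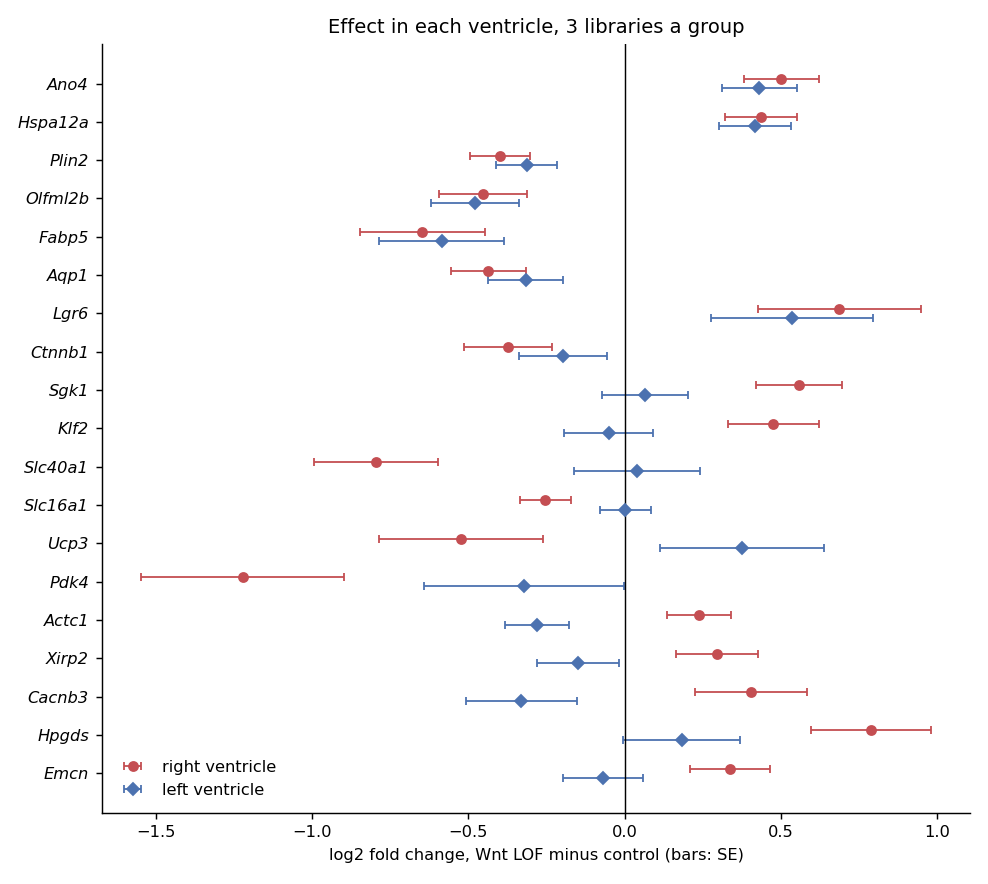
Log2 fold change (Wnt LOF minus control) of 19 named genes in the RV (circles) and the LV (diamonds), with bars for the SE and 3 libraries a group. Ano4 has 0.50 and 0.43, and Slc40a1 has -0.80 and 0.04.

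In the authors' deposited table for the RV, 14179 genes are listed, 0 of them with an adjusted p under 0.05 (smallest 0.918) and 764 with a p under 0.05. The authors' deposited table gives log2 fold changes of -1.14 for Pdk4, -0.43 for Ctnnb1, -0.41 for Plin2 and 0.52 for Ano4. For Ankrd55 the authors' deposited table gives 1.43, beside 2.74 here. The table also holds a log2 CPM for each of the 12 libraries, which came within 0.0721 of the log2 CPM of the deposited counts for all but 4 of the 14179 genes. In the authors' deposited table the values in the row of Gja1 (-1.78 to 0.28) are those that the counts give Gm16104, and the row of Gm16104 holds those of Gja1 (8.09 to 8.49). The rows of Hey2 and Gm6206 are exchanged in the same way. The authors' deposited table thus lists -1.30 for Gja1 and -0.96 for Hey2, where the counts gave -0.07 and 0.02.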

How the data were processed

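RNA-seq libraries of mouse heart ventricles were compared. The authors deposited raw counts per Ensembl gene, and a table of their own comparison with log2 fold changes and p-values, per the file headers. The submitters' processing notes name featureCounts, Subread and edgeR. Aligner, build and strand setting: not given in the sources used here. Overlapping genes and near-identical copies are therefore uncertain. Of 41192 rows, 598 that repeat a gene with equal counts were dropped.

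All 12 libraries were fitted with edgeR 4.0.16 (TMM, filterByExpr, robust quasi-likelihood, 1 mean per group) in R 4.3.3. RV TMM factors were 0.961 to 1.01. Adjustment of p-values for 15494 genes followed Benjamini-Hochberg (threshold 0.05), and the SE is the log2 fold change over the square root of F. Alternatives used other size factors and filters, DESeq2 1.42.0, limma 3.58.1, left-out libraries and a replicate block. Code was tested on simulated data.

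The comparison and the 45 gene lists were chosen with earlier results of these data known. The naming rule took Ctnnb1, Axin2 and Lef1, up to 12 genes a direction with the smallest p (mean log2 CPM at least 1, groups apart), up to 5 a list, preset channel, transcription factor and stress genes, and library checks. Not all are described.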

Additional observations from a re-analysis of the deposited data

How the results depend on the processing

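In the RV, 0 genes were called under all 22 alternatives (edgeR, DESeq2 or limma) but one. Without the libraries labelled WntLOF RV 1 and 3, which leaves 1 Wnt LOF library, 1 gene was called (Ankrd55, 4.20) and 2 for the difference from the LV. RV libraries alone give no such difference. The 418 genes at an unadjusted p under 0.05 became 645 with limma voom and quality weights, 303 with DESeq2, 818 without the libraries labelled WntLOF RV 1 and 3, 717 without the libraries labelled WntLOF RV 1 and WntLOF LV 1, and 309 to 709 with 1 RV library left out. Chosen after seeing the data, a term for libraries numbered 3 gave 554, and leaving out both RV libraries numbered 3 gave 362. Deviations from the group mean were correlated between control and Wnt LOF RV libraries. Those of the same number gave 0.0885, 0.113 and 0.306, and those of different numbers -0.237 to 0.162. The labels do not say whether a number marks a pair, and the replicate block gave 565 with 0 calls.

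Of 89 named genes, 72 kept their sign throughout, which the choice of genes with groups apart fixes for many of them, and for the other 17 the cause was not tested. Log2 fold changes that turned sign without the libraries labelled WntLOF RV 1 and 3 were 0.10 (Axin2), -0.57 (Bdh1), -0.11 (Kcnip2), 0.25 (Kcnd2), 0.0024 (Kcnj2), 0.13 (Tbx5), -0.047 (Nppa), -0.93 (Nppb) and 0.0068 (Myl2). Without both RV libraries numbered 3 they were 0.042 (Cacna1c), 0.056 (Ryr2), -0.0071 (Irx3), 0.027 (Tbx5) and 0.00059 (Myh6). Nppa had -0.28 without the libraries labelled WntLOF RV 1 and WntLOF LV 1. Hey2 had -0.071 with voom, -0.021 with the replicate block on RV libraries and -0.078 with a term for Y-linked reads. Leaving out 1 RV library gave -0.16 to 0.040 for Cacna1c, -0.089 to 0.037 for Ryr2, -0.18 to 0.10 for Atp2a2, -0.061 to 0.088 for Irx3, -0.29 to 0.20 for Hey2, -0.14 to 0.014 for Tbx5, -0.058 to 0.26 for Hand2, -0.28 to 1.15 for Nppa and -0.25 to 3.27 for Ankrd55. Of 990 list medians under alternatives, 939 lay within 1 SD of the reported value, the SD being that of a list's library medians within groups. This SD is wide where libraries disagree (0.219 for respiratory complex I), so a median can lie within it and still turn sign. At 15025051 to 17870968 reads a library, depth limits genes of few reads such as Lef1.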
